A study of Danio rerio with 69 samples.

Results

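The nuclear-encoded genes of the respiratory chain and ATP synthase were followed in zebrafish pineal gland and brain over age and between night and day. The set held 86 genes, taken from 93 probe sets whose single gene symbol started with nduf, sdh, uqcr, cyc1, cox4, cox5, cox6, cox7, cox8 or atp5, out of 15617 probe sets on the array. Where a gene had more than 1 such probe set, which 6 genes did, the one of highest mean level over all arrays was used, and 2 probe sets that listed several genes were left out. Complex I contributed 39 genes, complex II 7, complex III 8, complex IV 14 and complex V (ATP synthase) 18. Of the 86, 75 encode subunits, 9 encode assembly factors and 2 encode inhibitors of ATP synthase.

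The respiratory chain sits in the inner membrane of mitochondria. Complex I takes electrons from NADH, and complex II (succinate dehydrogenase) takes them from succinate while also serving the citric acid cycle. Complex III passes them to cytochrome c, complex IV (cytochrome c oxidase) hands them to oxygen, and the proton gradient built on the way drives ATP synthase. Most subunits are encoded in the nucleus, and the few encoded in mitochondrial DNA are not among these genes. Neurons and photoreceptors are heavy users of this route, and pinealocytes, the melatonin-making cells of the pineal gland, are related to photoreceptors and sense light themselves in fish.

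Tissue came from transgenic fish that carry GFP under the aanat2 promoter, which lights up pinealocytes and guided the dissection of the gland by hand. The comparison tissue was brain without pineal and eyes, and all fish lived at 28.5 °C with 14 h of light and 10 h of dark. Pineal groups held 4 night and 3 day arrays of 3-day fish, 4 and 5 of 5-day fish, 4 and 4 of 10-day fish, 3 and 3 of 3-month fish, and 4 and 4 of fish aged 1 to 2 years. Brain groups held 4 night and 3 day arrays of 3-day fish, 2 and 3 of 5-day fish, 4 and 3 of 10-day fish, 3 and 3 of 3-month fish, and 3 and 3 of the oldest fish. The first 3 ages are called larval here and the others adult. The labels call the arrays biological replicates and do not give the number of fish behind each.

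Median intensity ranged from 113.2 to 220.8 over the 69 arrays, and arrays of a group correlated at 0.767 to 0.971 over probe sets. All 9 pineal marker genes were called higher in pineal, among them aanat2, the enzyme that times melatonin synthesis, at 3.66 on the log2 scale. One 10-day pineal day array (replicate 2) stood apart from its group. Its summed pineal marker intensity of 3263 was the lowest of the larval pineal arrays but above every larval brain array, whose highest was 1331, and it had a GAPDH 3′/5′ signal ratio, a reading of RNA integrity that is higher in degraded RNA, of 10.38. Values that moved most without this array are given without it as well. Its ratio was not the highest: day replicates 1 and 2 of brain at 1 to 2 years read 13.85 and 17.2. The ratio passed 3 on 5 of 38 pineal arrays and 6 of 31 brain arrays.

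Pineal against brain, averaged over ages and sampling times, asked how the 2 tissues differ in this machinery. Of the 86 genes, 71 were lower in pineal and 1, cox4i2, was higher. In that comparison 19.6% of all probe sets tested were called lower and 17.8% higher; among probe sets above the median level these shares were 29% and 24.3%. The median difference of the 86 genes was -0.44 on the log2 scale, against 0.02 over all probe sets. Most differences were smaller than 2-fold: with that limit added, 5 genes were lower and 1 was higher, where 5.79% of probe sets were called in either direction. In whole tissue, fewer cells of a type and less RNA per cell cannot be told apart.

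**Figure D1:**
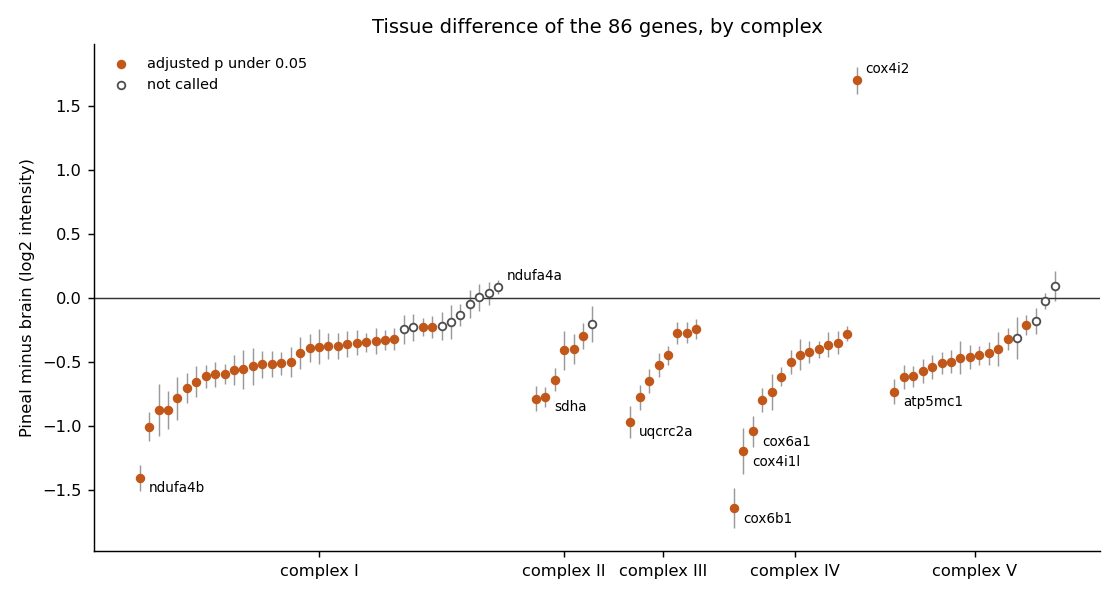
Pineal minus brain difference in log2 intensity of each of the 86 genes (vertical axis), ordered by size within each complex (horizontal axis). Points are estimates averaged over ages and sampling times, bars are standard errors, and filled points have an adjusted p below 0.05. The 71 filled points below 0 span all 5 complexes, and cox4i2 stands alone at 1.70.

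In complex I, 30 of 39 genes were lower, with a median of -0.38. The core subunits that take in electrons from NADH were among them: ndufv1, which carries the flavin, differed by -0.62 ± 0.09 (limma, adjusted p = 5.91e-08), ndufv2 by -0.60 ± 0.10 (6.85e-07) and ndufs1, which carries iron-sulfur clusters, by -0.50 ± 0.12 (3.40e-04). The accessory subunit ndufa9a lay at 7.67 to 9.88 on the log2 scale in pineal (median 8.77, n = 38) and at 8.37 to 10.85 in brain (median 9.62, n = 31), a difference of -1.01 ± 0.11. Its pineal and brain ranges overlapped over all ages, as they did for every one of the 86 genes. The 9 other complex I genes were not called, with differences of -0.25 to 0.08. For ndufb6, a subunit of the membrane arm, the chosen probe set fell by 0.39 in pineal while its other probe set lay 0.51 higher (adjusted p = 0.00588), so its direction is uncertain.

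All 4 complex II subunits were lower in pineal. Sdha, the flavoprotein that oxidizes succinate, ranged from 9.16 to 11.92 in pineal (median 10.50) and from 9.72 to 12.47 in brain (median 11.36). The upper part of the brain range was not reached by any pineal array, and the difference was -0.78 ± 0.08 (limma, adjusted p = 1.51e-12). Sdhb, the iron-sulfur subunit, differed by -0.79 ± 0.10 and sdhc, a membrane anchor, by -0.64 ± 0.09. The other anchor, sdhdb, differed less, by -0.30 ± 0.10 (adjusted p = 0.0158). Of the complex II assembly factors, sdhaf3 was lower by -0.41 ± 0.16 (adjusted p = 0.0292), a call that ended when either of 2 arrays was left out, and sdhaf4 by -0.40 ± 0.12. Sdhaf2, which puts the flavin on sdha, differed by -0.21 ± 0.14 (adjusted p = 0.255).

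All 8 complex III genes were lower. The pair uqcrc2a and uqcrc2b, which encode a core protein of the complex, differed by -0.97 ± 0.12 and -0.78 ± 0.10. A second, dimmer probe set of uqcrc2a was not called, at -0.20 (adjusted p = 0.383). The Rieske iron-sulfur protein uqcrfs1 differed by -0.65 ± 0.10, and the hinge protein uqcrh by -0.45 ± 0.08. Cyc1, cytochrome c1, had the smallest difference of the complex at -0.24 ± 0.08 (limma, adjusted p = 0.00953).

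Complex V was lower in 14 of 18 genes. The catalytic beta subunit atp5f1b differed by -0.62 ± 0.08 (limma, adjusted p = 5.49e-09). Among the genes for the c subunit, which forms the rotor ring in the membrane, atp5mc1 lay at 8.50 to 11.60 in pineal (median 10.80) and at 9.12 to 12.65 in brain (median 11.73), a difference of -0.73 ± 0.10. Its relatives atp5mc3a and atp5mc3b were not called, at -0.02 ± 0.06 and -0.18 ± 0.10. Whether these paralogs differ from each other was not tested. Of the inhibitors that block ATP hydrolysis by the enzyme, atp5if1a was lower by -0.40 ± 0.13 and atp5if1b by -0.57 ± 0.10. For atp5l, at -0.44 ± 0.09, a second probe set of low level gave 0.11 (adjusted p = 0.623).

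Complex IV held both extremes of the set. Cox4i2 is an isoform of subunit 4 that in mammals is abundant in lung and responds to low oxygen. It ranged from 9.33 to 14.22 in pineal (median 12.07) and from 9.89 to 11.84 in brain (median 10.71). A single pineal array, the 10-day day array that stood apart, lay below all brain arrays. The difference was 1.70 ± 0.10, or 3.24-fold (limma, adjusted p = 3.88e-22), and 1.76 without that array. Cox4i1l, named as a relative of the other subunit 4 isoform, lay at 4.39 to 8.10 in pineal (median 6.44) and at 4.90 to 9.12 in brain (median 7.72). It was lower by -1.20 ± 0.18.

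The other complex IV genes were all called lower. Cox6b1, a subunit that faces the intermembrane space, ranged from 6.92 to 10.56 in pineal (median 8.50) and from 8.44 to 11.75 in brain (median 10.04). Its difference of -1.64 ± 0.15, a 3.13-fold lower level, was the largest fall of the set, whereas its relative cox6b2 differed by -0.28 ± 0.06. Cox6a1 was lower by -1.04 ± 0.12, cox7a2a by -0.80 ± 0.09 and cox8a by -0.62 ± 0.07. Cox7a2l, which in mammals takes part in joining complexes III and IV, was lower by -0.37 ± 0.10.

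The gene ndufa4 was first counted with complex I, and its mammalian protein is now placed in complex IV. Zebrafish carry the copies ndufa4a and ndufa4b, both counted with complex I here by their symbols. Ndufa4b ranged from 6.55 to 9.30 in pineal (median 8.03) and from 7.97 to 10.78 in brain (median 9.30), a difference of -1.41 ± 0.10 (limma, adjusted p = 1.30e-18). Ndufa4a was not called, at 0.08 ± 0.06 (adjusted p = 0.259), with pineal arrays at 11.03 to 12.47 and brain arrays at 10.86 to 12.30. The copies were not tested against each other.

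The direction was shared across ages for most genes: 61 were lower in pineal at all 5 ages and cox4i2 was higher at all 5. The share of all probe sets with the same sign at all 5 ages was not counted. In larvae 46 genes were lower and 1 was higher, with a median of -0.35, where 8.92% of probe sets were called lower and 7.7% higher. In adults 63 were lower and 2 were higher, with a median of -0.59, where 23.6% were called lower and 21.5% higher. The size depended on the scaling. With median centring in place of quantile normalization, the median was -0.98 in adults and -0.29 in larvae. In adults 79 genes were then lower and 1 was higher, and 7279 of 15502 probe sets were called. The adult arrays of 6 genes did not overlap, all of them lower in pineal: cox6b1, cox7a2a, cox7b, ndufa4b, ndufa9a and uqcrc2b. Adult arrays of cox4i2 did not overlap either, with pineal higher. Over all probe sets, 5.55% had adult arrays apart with pineal lower and 4.6% with pineal higher. With pineal lower, the share of the respiratory genes was near that of all probe sets. With pineal higher, their share was below that of all probe sets. The lack of overlap therefore does not set these genes apart from the rest of the array.

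Markers of other cells also differed between the tissues, in directions that varied with cell type and stage. In larvae all 18 muscle genes measured were lower in pineal (median -4.20), and their summed intensity was 698 to 35806 in pineal and 12586 to 170713 in brain. The pineal sum of 35806 was that of 3-day pineal day replicate 1. In adults the muscle sums were 1348 to 19356 in pineal and 1129 to 2262 in brain, with 2 of 18 genes higher and 1 lower. Neuronal markers were lower in pineal for 5 of 11 genes in larvae (median -0.31) and for 10 of 11 in adults (median -2.86). Their sums in adults were 15290 to 35814 in pineal and 59108 to 73050 in brain. Skin and keratin markers were higher in adult pineal for 13 of 13 genes (median 3.45), with sums of 30441 to 153813 in pineal and 2203 to 13367 in brain. Myelin markers were lower in adult pineal for 4 of 6 genes (median -2.75), and erythrocyte markers were higher for 6 of 8 (median 1.12). The part of these cells in the respiratory gene differences was not tested.

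The tissue difference was then compared between stages, as the adult pineal minus brain difference less the larval one. For 14 genes it was more negative in adults and for 2 it was more positive, in a comparison where 18.9% of probe sets were called lower and 18% higher. The share of the 86 genes called more negative was near that of all probe sets, and the share called more positive was below it. The median of the 86 genes, -0.24, stood beside -0.10 over all probe sets. Altogether, 16 of the 86 genes were called, a lower share than the 5721 of 15502 probe sets (36.9%). This share depended on the scaling: with median centring 56 of the 86 genes, 55 of them more negative in adults, and 6184 of 15502 probe sets were called, and the median of all probe sets moved to -0.13. The genes called included 8 counted with complex I, ndufa4a and ndufa4b among them, and 3 of complex II. A further 1 was of complex III and 4 of complex IV, with none of the 18 of complex V.

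**Figure D2:**
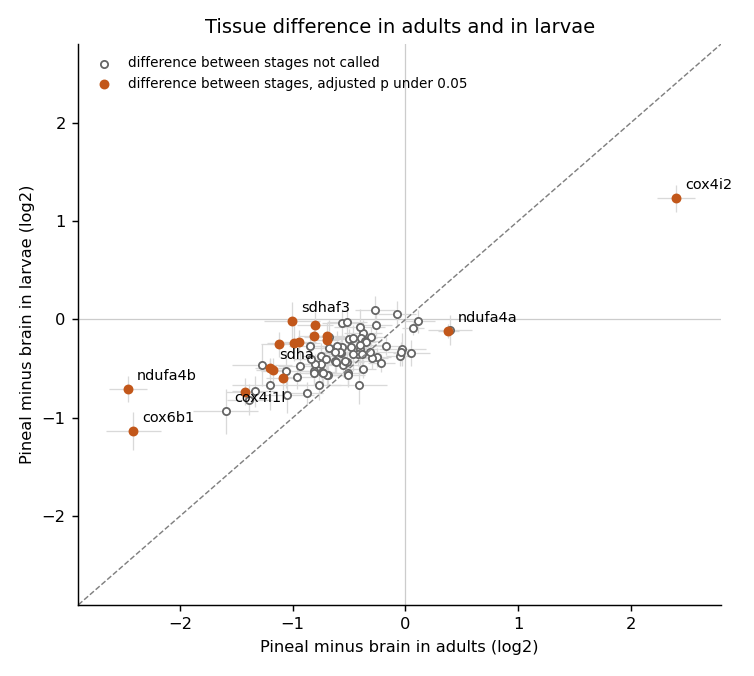
Pineal minus brain difference of the 86 genes in adults (horizontal axis, log2) and in larvae (vertical axis, log2), with standard errors. Filled points mark the 16 genes whose difference changed between the stages at an adjusted p below 0.05, and the dashed line marks equal differences. Cox4i2, ndufa4b and cox6b1 lie farthest from 0 in adults, at 2.40, -2.46 and -2.41.

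Cox4i2 moved farther above brain. Larval pineal arrays lay at 9.33 to 12.30 (median 11.85, n = 24) and larval brain arrays at 9.89 to 11.20 (median 10.42, n = 19). In adults, pineal arrays lay at 13.48 to 14.22 (median 13.74, n = 14) and brain arrays at 10.45 to 11.84 (median 11.62, n = 12). The pineal minus brain difference was 2.40 ± 0.17 in adults and 1.23 ± 0.13 in larvae, and it changed by 1.17 ± 0.21 (limma, adjusted p = 7.64e-06). The change was 1.07 without the 10-day array that stood apart, and 0.69 with median centring in place of quantile normalization, still called.

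Ndufa4b moved the other way. Its adult pineal arrays lay at 6.95 to 8.36 (median 7.72) and its adult brain arrays at 9.81 to 10.78 (median 10.09), with no overlap. In larvae the ranges of 6.55 to 9.30 in pineal and 7.97 to 9.55 in brain overlapped. The difference was -2.46 ± 0.17 in adults and -0.71 ± 0.13 in larvae, a change of -1.75 ± 0.21 (limma, adjusted p = 3.07e-10). Ndufa4a changed by 0.50 ± 0.12 towards pineal (adjusted p = 3.91e-04), but with median centring in place of quantile normalization this turned to -0.06.

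**Figure D3:**
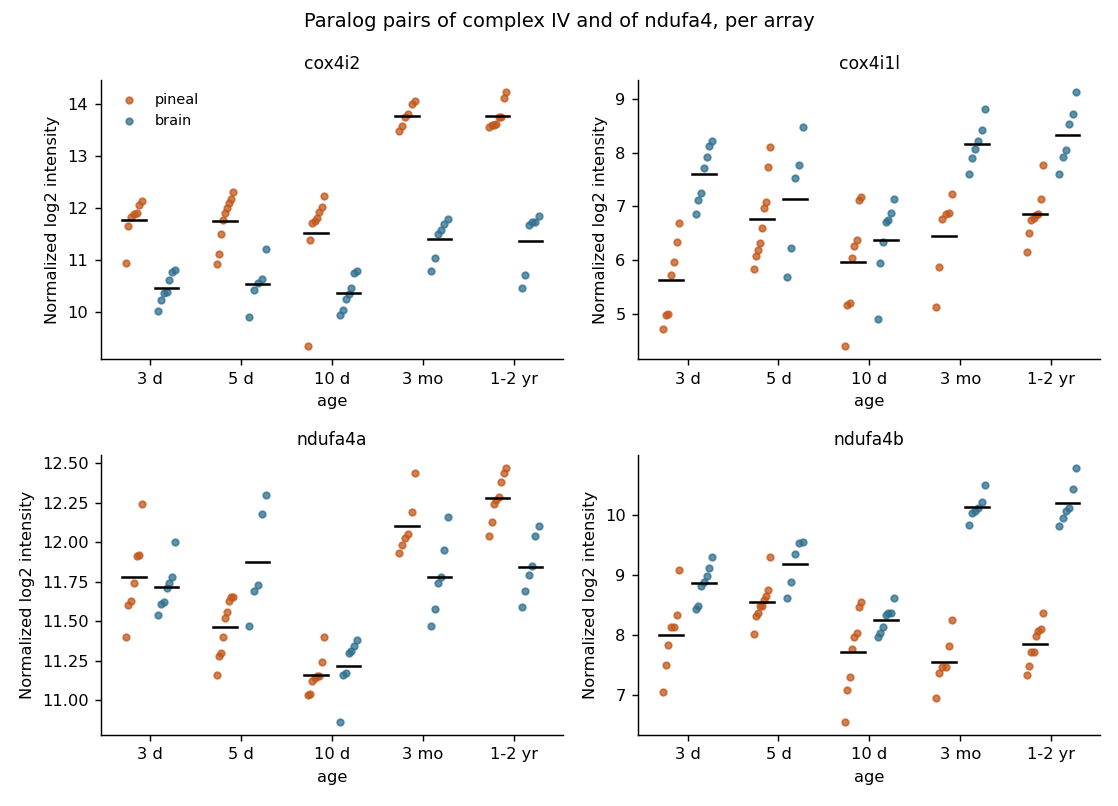
Normalized log2 intensity (vertical axes) of cox4i2, cox4i1l, ndufa4a and ndufa4b on each array, by age (horizontal axes), with pineal left of brain. Points are arrays and lines are group means over both sampling times. Adult pineal arrays of cox4i2 sit at 13.48 to 14.22, above all others, and adult brain arrays of ndufa4b sit at 9.81 to 10.78.

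Cox6b1, too, moved farther below brain. It differed between the tissues by -2.41 ± 0.25 in adults and -1.13 ± 0.20 in larvae, a change of -1.28 ± 0.32 (limma, adjusted p = 7.95e-04). The complex II flavoprotein sdha changed by -0.71 ± 0.17 and the assembly factor sdhaf3 by -0.99 ± 0.32. Sdhb changed by -0.48, a call that leaving out any 1 of 47 arrays ended. In complex I, ndufv2 changed by -0.87 ± 0.20, while its second probe set gave -0.19 (adjusted p = 0.591), and ndufa5, ndufa6, ndufa9a, ndufaf1 and ndufb9 by -0.53 to -0.76. The complex III gene uqcrc2b changed by -0.66 ± 0.20. The GAPDH 3′/5′ ratio passed 3 on 1 of 14 adult pineal arrays and 4 of 12 adult brain arrays. Without all arrays above 3, in larvae too, 11 genes were called, of which 7 were among the 16. Then ndufa4b stood at -1.66, cox6b1 at -0.90, cox4i2 at 0.80 and sdha at -0.45, still called, whereas the calls for sdhaf3, sdhb and uqcrc2b ended. With the ratio as a covariate 14 of the 16 kept their calls.

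Within brain, adults were compared with larvae. Of the 86 genes, 62 were higher in adult brain and 0 were lower, with a median of 0.55 against 0.05 over all probe sets, of which 19.1% were called higher and 16.3% lower. Without adjustment 68 had a p below 0.05, again all higher, a threshold at which all probe sets were not counted. Ndufa4b lay at 9.81 to 10.78 in adult brain and at 7.97 to 9.55 in larval brain, without overlap, a rise of 1.37 ± 0.16 (limma, adjusted p = 4.51e-11). Sdha rose by 1.05 ± 0.12, with adult arrays at 11.27 to 12.47 (median 11.75) and larval arrays at 9.72 to 11.92 (median 10.78). The inhibitor atp5if1b rose by 1.18 ± 0.14, cox6b1 by 1.19 ± 0.23, cox4i1l by 1.18 ± 0.27 and cox4i2 by 0.93 ± 0.16. By complex, 29 of 39 genes rose in complex I, 4 of 7 in complex II, 5 of 8 in complex III, 12 of 14 in complex IV and 12 of 18 in complex V. Without the arrays of a GAPDH 3′/5′ ratio above 3 the median of the 86 genes was 0.46. That fit left a single day array of brain at each adult age.

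Cell type markers moved too in brain. All 18 muscle genes were lower in adult brain (median -4.44), as were all 13 skin genes (median -3.35), while 8 of 11 neuronal genes were higher (median 1.07). Their part in the rise of the respiratory genes was not tested.

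Within pineal, 47 genes were higher in adults and 4 were lower, with a median of 0.34 against -0.05 over all probe sets, of which 22.9% were called higher and 24.5% lower. This balance depended on the scaling: with median centring 7 were higher and 10 lower, with a median of 0.01. It also depended on the 10-day fish: without them 24 were higher and 7 lower, with a median of 0.13. Cox4i2 rose by 2.10 ± 0.14 (limma, adjusted p = 4.82e-20), by 2.00 without the 10-day array that stood apart and by 1.74 with median centring. Other rises under quantile normalization were 0.90 ± 0.11 in ndufb5, 0.78 ± 0.12 in cox5aa, 0.74 ± 0.13 in atp5if1b and 0.72 ± 0.08 in ndufa4a, which kept their calls with median centring at 0.53, 0.34, 0.38 and 0.28. The falls were sdhaf3 at -0.68 ± 0.21, ndufv2 at -0.55 ± 0.14, ndufb8 at -0.48 ± 0.15 and ndufa4b at -0.38 ± 0.14, and these too kept direction and call with median centring. With no scaling between arrays the calls for ndufa4b and sdhaf3 ended, at -0.09 and -0.28. Leaving out any 1 of 3 arrays ended the call for ndufa4b (adjusted p up to 0.0876), and leaving out 3-month pineal day replicate 1 ended that for sdhaf3 (adjusted p = 0.0504). The second probe set of ndufv2 stood at 0.28 (adjusted p = 0.158). In adult pineal 8 of 11 neuronal genes were lower than in larval pineal (median -1.32), and all 9 pineal markers were higher (median 2.59). Their part was not tested.

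Within the larval ages the level dipped. At 10 days 43 genes were lower in pineal than at 3 days and 4 were higher, with a median of -0.57, where 12.2% of probe sets were called lower and 11.7% higher. In brain 45 were lower and 5 higher, with a median of -0.61, where 10.8% were called lower and 10.5% higher. A score per array, the median over the 86 genes of each gene's log2 deviation from its own mean, traced the same course. In 3-day pineal it averaged -0.07 ± 0.33 (SD, n = 7), in 5-day pineal -0.29 ± 0.20 (n = 9), in 10-day pineal -0.59 ± 0.17 (n = 8), in 3-month pineal -0.07 ± 0.18 (n = 6) and in the oldest pineal 0.11 ± 0.21 (n = 8). In brain it averaged 0.25 ± 0.28 (n = 7), 0.12 ± 0.23 (n = 5), -0.28 ± 0.18 (n = 7), 0.52 ± 0.24 (n = 6) and 0.69 ± 0.19 (n = 6) in the same order of ages.

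**Figure D4:**
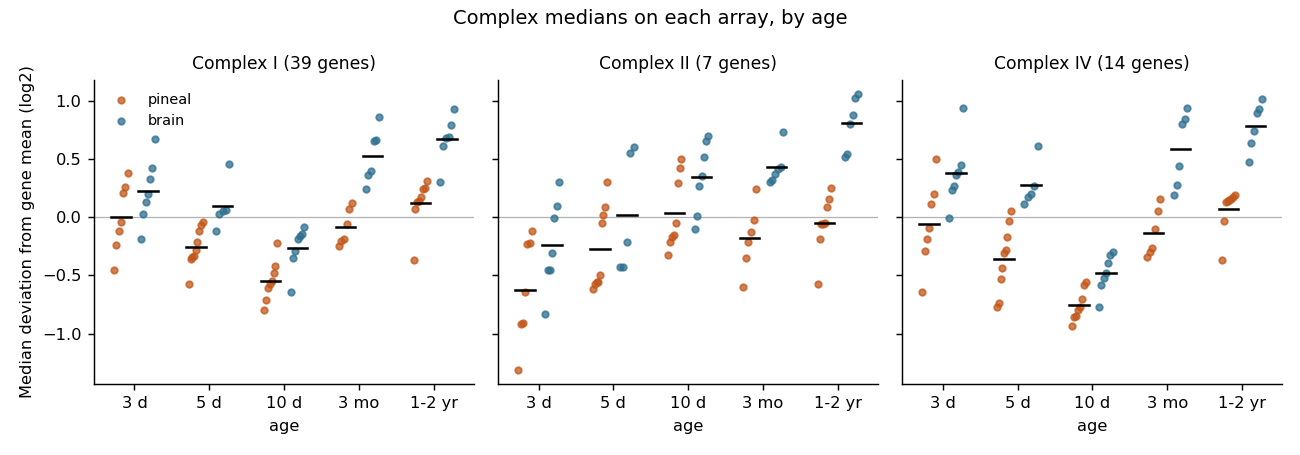
Median over the genes of a complex of the log2 deviation from each gene's mean over all arrays (vertical axis), for complexes I, II and IV on each array, by age (horizontal axes), with pineal left of brain. Points are arrays and lines are means. Complexes I and IV are lowest at 10 days in both tissues, and complex II is lowest at 3 days.

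The dip ran through complexes I, III, IV and V. Complex I fell in 21 of 39 genes in pineal and 18 of 39 in brain, complex III in 3 of 8 in each, complex IV in 7 and 12 of 14, and complex V in 12 of 18 in each. Atp5mc1 lay at 8.50 to 10.26 in 10-day pineal (median 9.47) and at 10.02 to 11.60 in 3-day pineal (median 11.11), a fall of -1.55 ± 0.21 (limma, adjusted p = 1.24e-08). In brain its arrays lay at 9.12 to 10.44 at 10 days and at 11.33 to 12.49 at 3 days, without overlap, a fall of -1.86 ± 0.21. Ndufc2, a complex I subunit, fell by -1.82 ± 0.23 in pineal and -1.35 ± 0.24 in brain. Cox5ab, a complex IV subunit on the matrix side, fell by -1.42 ± 0.26 in pineal, or -1.77 without the 10-day array that stood apart, and by -1.83 ± 0.27 in brain. Over the same step muscle markers were lower for 3 of 18 genes in pineal (median -0.21) and 13 of 18 in brain (median -1.58), and skin markers for 6 and 7 of 13. Of the 9 pineal markers, 4 were lower in pineal. The part of these cells in the dip was not tested.

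Complex II went the other way, with 3 of its 7 genes higher at 10 days than at 3 days in pineal, 4 of 7 higher in brain, and 0 lower in either. Sdha lay at 10.50 to 11.92 in 10-day pineal and at 9.16 to 10.49 in 3-day pineal, without overlap. Its rise was 1.36 ± 0.17 in pineal (limma, adjusted p = 2.41e-09) and 0.95 ± 0.18 in brain. Sdhb rose by 0.69 ± 0.21 in pineal and 0.71 ± 0.21 in brain. Sdhaf2 rose by 0.99 ± 0.31 in brain and by 1.13 ± 0.30 in pineal. Without the 10-day array that stood apart, on which it read 11.56, its pineal rise was 0.70 (adjusted p = 0.0201). Sdhc rose by 0.72 ± 0.19 in brain and was not called in pineal, at 0.36 (adjusted p = 0.157). Outside complex II the one gene called higher at 10 days was the inhibitor atp5if1b, by 0.85 ± 0.20 in pineal and 0.79 ± 0.21 in brain. No test of complex II against the other complexes was run.

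Between 10 days and 3 months the genes rose again. In pineal 47 were higher at 3 months and 3 lower, with a median of 0.53, where 16.5% of probe sets were called higher and 17.4% lower; median centring left 14 higher and 6 lower. In brain 56 were higher and 0 lower, with a median of 0.76, where 10.8% were called higher and 10.9% lower. These steps share the 10-day arrays with the ones above. Without the arrays of a GAPDH 3′/5′ ratio above 3, the brain median was 0.55, with a single day array left at 3 months. Atp5mc1 rose by 1.41 ± 0.21 in pineal and 1.95 ± 0.22 in brain, ndufb5 by 1.51 ± 0.17 and 1.48 ± 0.18, and cox4i2 by 2.26 ± 0.23 and 1.05 ± 0.23. Complex II had 0 genes higher in either tissue at this step, and in pineal sdhaf2 and sdhaf3 were lower, by -1.06 ± 0.31 and -0.99 ± 0.34. Without the 10-day array that stood apart sdhaf2 was lower by -0.63. In brain 16 of 18 muscle markers were lower at 3 months and 6 of 11 neuronal markers were higher, and in pineal all 9 pineal markers were higher. Their part was not tested.

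Within adults, none of the 86 genes differed between 1 to 2 years and 3 months in either tissue by limma. In that comparison 0.174% of all probe sets were called in pineal and 0.0839% in brain. At an unadjusted p below 0.05 there were 8 of the 86 genes in pineal and 2 in brain, all higher at 1 to 2 years. The lowest adjusted p of the 86 genes by limma was 0.505 in pineal. All probe sets were not counted at the unadjusted threshold, so these counts do not show a rise with age.

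Night was compared with day to ask whether the machinery follows the light cycle. In pineal 6 genes were lower at night and 0 were higher, in a comparison where 1.3% of probe sets were called lower and 1.34% higher. In brain 5 were lower and 0 higher, where 0.548% were called lower and 0.374% higher. Sdha, sdhb, cox6c and ndufa5 were lower at night in both tissues, 4 of the 6 in pineal and 4 of the 5 in brain. At an unadjusted p below 0.05, 31 genes were lower at night and 1 was higher in pineal, and 24 were lower and 4 higher in brain. The share of all probe sets at that unadjusted threshold was not counted, so these counts have nothing to be read against. The medians over the 86 genes were -0.17 in pineal and -0.12 in brain, against 0 over all probe sets in each tissue.

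Sdha lay at 9.22 to 10.88 in pineal at night (median 10.07, n = 19) and at 9.16 to 11.92 by day (median 10.88, n = 19). In brain it lay at 9.72 to 11.86 at night (median 10.85, n = 16) and at 10.35 to 12.47 by day (median 11.45, n = 15). Night and day arrays overlapped over all ages. The night minus day difference was -0.70 ± 0.11 in pineal (limma, adjusted p = 7.19e-06) and -0.76 ± 0.12 in brain (2.07e-05), negative at each of the 5 ages in both. At 1 to 2 years in pineal the night arrays read 10.07, 10.36, 10.36 and 10.50 and the day arrays 10.85, 10.85, 10.88 and 11.14, without overlap. At 5 days in brain the night arrays read 9.80 and 10.21 and the day arrays 11.30, 11.36 and 11.38. The 5-day difference in brain was called by itself, whereas 1 to 2 years in pineal is not among the single-age calls given below. How many of all probe sets lacked overlap in these groups was not counted.

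**Figure D5:**
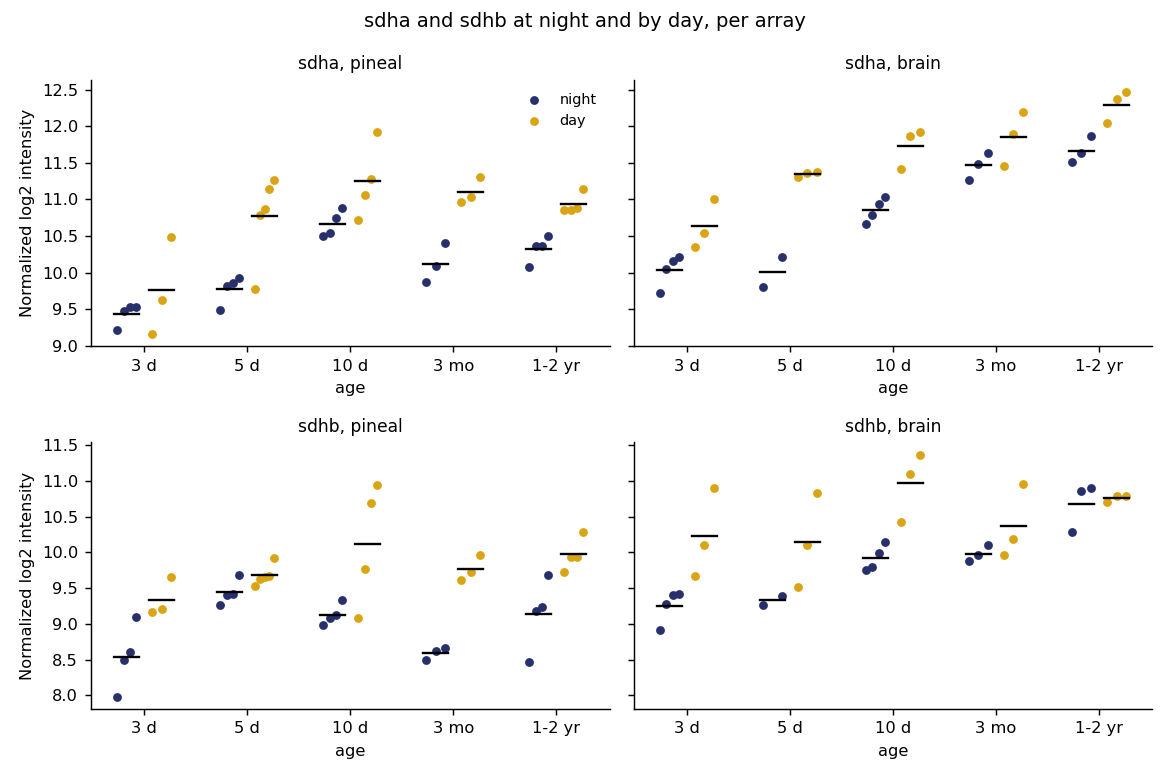
Normalized log2 intensity (vertical axes) of sdha and sdhb on each array at night (left of each pair) and by day, by age (horizontal axes), in pineal and brain. Points are arrays and lines are means. Night means lie below day means in every panel and at every age.

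Sdhb lay at 7.98 to 9.68 in pineal at night (median 9.09) and at 9.08 to 10.95 by day (median 9.72), a difference of -0.81 ± 0.13 (limma, adjusted p = 1.72e-05). At 3 months the pineal night arrays read 8.50, 8.62 and 8.66 and the day arrays 9.61, 9.72 and 9.97, without overlap. Sdhb at this age is not among the single-age calls given below, and the share of all probe sets without overlap in these groups was not counted. In brain its difference was -0.66 ± 0.14, with arrays at 8.91 to 10.90 at night and 9.52 to 11.37 by day. The assembly factor sdhaf4, which helps join sdha to sdhb, lay at 5.91 to 8.66 in pineal at night (median 7.73) and 7.53 to 9.65 by day (median 8.44), a difference of -0.75 ± 0.16 (adjusted p = 0.00204). The membrane anchors sdhc and sdhdb were not called, at -0.26 ± 0.12 and 0.03 ± 0.14 in pineal.

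Outside complex II, cyc1 was lower at night in pineal by -0.50 ± 0.10 (limma, adjusted p = 0.00179), with arrays at 9.68 to 11.21 at night and 10.32 to 11.99 by day. Cox6c, a small complex IV subunit, was lower by -0.74 ± 0.19 in pineal and -0.80 ± 0.21 in brain. Ndufa5, an accessory subunit of complex I, was lower by -0.47 ± 0.13 in pineal and -0.69 ± 0.15 in brain. The calls for cox6c and ndufa5 in pineal ended without the 3-day arrays, at -0.54 and -0.23. In brain all calls but that of sdha then ended, with sdhb at -0.59, ndufa5 at -0.51, cox6c at -0.70 and atp5f1e at -0.81. Leaving out any 1 of 17 arrays ended the pineal call for ndufa5, and any 1 of 18 the brain call for cox6c. In brain the epsilon subunit of ATP synthase, atp5f1e, was lower by -0.89 ± 0.24 (adjusted p = 0.0494), a call that leaving out any 1 of 46 arrays ended. The night-day difference itself did not differ between pineal and brain for any of the 86 genes by limma, with 20 probe sets called in all, 0.129% of those tested. None of the 86 genes had an unadjusted p below 0.05 there, a threshold at which all probe sets were not counted.

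The GAPDH 3′/5′ ratio differed between sampling times. It passed 3 on 1 of 19 pineal arrays at night and 4 of 19 by day, and on 0 of 16 brain arrays at night and 6 of 15 by day. Without those 11 arrays sdha was still lower at night, by -0.57 in pineal (adjusted p = 1.18e-04) and -0.59 in brain (0.0103), and sdhb in pineal by -0.78. Cyc1, sdhaf4 and ndufa5 in pineal also kept their calls, and cox6c did not, at -0.48 (adjusted p = 0.0979). In brain the other 4 calls ended: sdhb stood at -0.52, ndufa5 at -0.22, cox6c at -0.22 and atp5f1e at -0.12. These brain fits left a single day array at 3 months and at 1 to 2 years, which was assumed to vary like the other groups.

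Night and day were also compared at single ages. At 3 days 10 genes were lower at night in pineal, with a median of -0.59, where 0.581% of probe sets were called lower, and 2 were lower in brain, with a median of -0.47, where 0.0387% were. Of the 3-day pineal day arrays, replicate 1 had a GAPDH 3′/5′ ratio of 3.84 and a muscle marker sum of 35806. The other day arrays had muscle sums of 1320 and 2152, and the night arrays 698 to 1538. On the score per array, replicate 1 read 0.33, the other day arrays 0.18 and 0.22, and the night arrays -0.56 to -0.10. The part of replicate 1 in these calls was not tested. At the later ages few genes were called. Sdha was lower at night at 5 days in pineal (0.29% of probe sets called lower) and in brain (0.142%), and sdhaf4 at 10 days in pineal (0.29%). Cox5ba was higher at night by 1.13 ± 0.30 in the oldest brain (limma, adjusted p = 0.0483), where 0.658% of probe sets were called higher. The GAPDH 3′/5′ ratio of the day arrays in that brain was 13.85, 17.2 and 1.27, and that of the night arrays 1.3 to 1.41. The part of RNA integrity in the cox5ba call was not tested. In 5-day pineal the median was 0.09, with 52 of the 86 genes above 0, and it was -0.03 in 10-day, -0.24 in 3-month and -0.09 in the oldest pineal. The brain medians were -0.20, 0.02, -0.17 and 0.05 in the same order of ages. Variation of the pineal night-day contrast among the 5 ages, by limma's F-test, was called for 1 gene, ndufs5 (adjusted p = 0.00106), where 0.258% of probe sets were called. Ndufs5, an accessory subunit of complex I, read 9.48, 9.59, 9.60 and 10.11 in 3-day pineal at night and 10.77, 11.03 and 11.31 by day. At 10 days it read 9.90 to 10.62 at night and 9.17 to 10.04 by day, with overlap. The difference was -1.34 at 3 days and 0.67 at 10 days.

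Other genes of energy metabolism were read against the same shares of all probe sets between tissues, 19.6% lower and 17.8% higher, or 29% and 24.3% above the median level. Of 18 genes of the citric acid cycle and pyruvate dehydrogenase, 14 were lower in pineal than in brain and 0 higher (median -0.47), led by fh at -0.87 ± 0.12, idh2 at -0.78 ± 0.11 and dlst at -0.77 ± 0.12. Of 27 glycolytic genes 18 were lower and 2 higher (median -0.69), with aldoca at -2.06 ± 0.18 and eno1b at 1.15 ± 0.11. Of 59 mitochondrial ribosomal protein genes 34 were lower and 1 higher (median -0.34). Protein import into mitochondria was lower in 6 of 21 genes and higher in 1 (median -0.16), with timm50 at -0.93 ± 0.13. Among 11 regulators of mitochondrial biogenesis 3 were lower and 1 higher, with ppargc1b at -0.60 ± 0.15. The shares lower in these last 2 lists were near those of all probe sets.

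Carriers of electrons and metabolites split in direction. Of 12, 7 were lower and 2 higher. The phosphate carrier slc25a3a, which feeds ATP synthase, was 2.39 ± 0.13 higher in pineal (limma, adjusted p = 6.54e-25). The mitochondrial creatine kinase ckmt1 was lower by -1.84 ± 0.12 and a cytochrome c gene, cycsb, by -0.72 ± 0.07. Of 15 other factors that assemble the complexes, 10 were lower and 0 higher.

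At night in pineal 1.3% of all probe sets were called lower and 1.34% higher. Of the 18 citric acid cycle genes 0 were called, which does not set them apart from all probe sets. Of the 15 assembly factors 4 were lower. Among these cox17, a copper chaperone for complex IV, fell by -0.79 ± 0.13 (limma, adjusted p = 1.92e-05). Hspe1, the mitochondrial chaperonin partner listed with protein import, fell by -0.85 ± 0.12, and etfa, which feeds electrons from fat oxidation into the chain, by -0.52 ± 0.12. Of the glycolytic genes 5 were lower at night and 2 higher, pklr by 0.98 ± 0.22.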

How the data were processed

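Pineal and brain RNA had been hybridized to 69 Affymetrix zebrafish arrays. The authors' deposited table gave 1 linear intensity per probe set and array; without the highest and lowest 2% of its values every column averaged 500.1 to 500.2, so the intensity values had already been scaled to a common target. The summarizing algorithm and any background correction are not given in the sources used here.

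The 115 control probe sets were left out, 16 was added, and log2 values were quantile normalized. Genes were named from the platform annotation. The limma model (version 3.58.1, R 4.3.3) held 1 mean per group for 20 groups and 15502 probe sets, with equal weights for ages and sampling times in each contrast and p-values adjusted by Benjamini-Hochberg within it. A call is an adjusted p below 0.05. Lack of overlap between arrays was counted over all probe sets only for pineal against brain, in adults and in larvae. Errors are standard errors of this fit unless named otherwise. The p-values reflect the spread between labelled biological replicates.

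The genes and lists were chosen with earlier results of these data known. Named genes were, per comparison, the 4 largest called rises and falls, the smallest adjusted p per complex, all sdh genes, the cox4, cox6a, cox7a, cox8 and ndufa4 families, and genes whose probe sets disagreed; from other lists, the 3 called genes of smallest adjusted p. Genes outside this rule were chosen after their values were seen, as were the comparisons between single ages. The fit was tested on simulated data. Alternatives changed the scaling, constant, filter, weights, arrays and ages, added the GAPDH ratio, or added a replicate block.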

Additional observations from a re-analysis of the deposited data

Results flagged for a closer look

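The change of the pineal-brain difference between larvae and adults was tested directly by a limma contrast. Under quantile normalization 16 of the 86 genes differed between the stages, a lower share than the 36.9% of all probe sets called. With median centring ndufa4a turned to -0.06, and leaving out any 1 of 47 arrays ended the call for sdhb. The pineal-brain difference was more positive in adults for cox4i2 at 1.17 and ndufa4a at 0.50. It was more negative for ndufa4b at -1.75, cox6b1 at -1.28, sdhaf3 at -0.99, ndufv2 at -0.87, ndufa6 at -0.76, ndufa5 at -0.75, ndufb9 at -0.71, sdha at -0.71, ndufa9a at -0.68, uqcrc2b at -0.66, cox7c at -0.64, ndufaf1 at -0.53, cox7b at -0.48 and sdhb at -0.48. For ndufs5 the pineal night-day contrast differed among ages, with an adjusted p of 0.00106 in limma's F-test.

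Single arrays stood apart from the rest of their group, relative to its range, in 7 of 99 tests, and chance alone gives about 1 in 20. A small gap can be flagged where the group is tight. Each test took 1 gene, the median of 1 complex or that of the whole set, in 1 group of 4 or 5 arrays. The tests share genes and arrays, so they are not independent. Smaller groups were not tested. On pineal night replicate 4 at 1 to 2 years the medians of complex III and complex IV lay at -0.67 and -0.37, with the nearest arrays at 0.10 and 0.13. On pineal day replicate 4 at 1 to 2 years cox4i2 read 13.74, nearest 13.61, and sdha read 11.14, nearest 10.88. The cox4i2 gap was 0.867 of a narrow range, and 13.74 was also the median of the adult pineal arrays. Ndufa4b read 9.30 on 5-day pineal day replicate 1, nearest 8.58. Cox6b1 read 9.76 on 10-day pineal day replicate 2, nearest 8.49, and 10.59 on 3-day brain night replicate 4, nearest 10.04.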

How the results depend on the processing

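A limit of 2-fold left 6 of 72 genes between tissues, 16 in adults, 2 in larvae, 3 for the change with stage, 1 between pineal stages, 7 between brain stages, 16 in pineal and 14 in brain from 3 to 10 days, 14 in pineal and 29 in brain from 10 days to 3 months, and 0 between night and day in either tissue. Of all probe sets it left 5.79% between tissues, 21% in adults, 4.02% in larvae and 22.8% for the change with stage. Pineal stages gave 15.6% and brain stages 11.6%. The step from 3 to 10 days gave 12.8% in pineal and 12% in brain, and the next step 20.9% and 12.7%. Night gave 0.381% in pineal and 0.277% in brain. The shares of the 86 genes were higher from 3 to 10 days and in brain from 10 days to 3 months. Elsewhere they were near or below. Median centring gave 56 for the change with stage, 17 between pineal stages with the balance reversed, 20 for pineal from 10 days to 3 months and 3 for night in brain. It reversed ndufa4a to -0.058 for the change with stage and to -0.06 between adult tissues, and cox8a and sdha between pineal stages to -0.126 and -0.064. No scaling gave 3 for night in brain and moved the median of all probe sets between pineal stages to 0.28. The mean of all probe sets of a gene turned ndufb6 to 0.059 between tissues. Array weights gave 36 for the change with stage and 28 for night in brain. Adding the GAPDH ratio, or leaving out arrays above 3, gave 1 for night in brain. Keeping probe sets above the median level gave 10 for night in pineal, and using only the arrays of the groups compared gave 9 for night in brain. Without the 3-day fish night in brain gave 1 and larval tissue 31; without 5-day or 10-day fish night in pineal gave 10, and without 10-day fish pineal stages gave 31. Without the 3-month fish night in brain gave 3 and adult tissue 43. Without the oldest fish the change with stage gave 9, pineal stages 27, brain stages 37 and night in brain 3. The cause of these moves was not tested.

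Leaving out 1 array at a time gave 71 to 76 genes between tissues, 38 to 51 in larvae, 60 to 69 in adults, 13 to 23 for the change with stage, 45 to 53 between pineal stages, 55 to 63 between brain stages, 44 to 50 and 42 to 53 from 3 to 10 days in pineal and brain, 43 to 50 and 46 to 57 from 10 days to 3 months, 5 to 9 and 3 to 9 for night in pineal and brain, and 0 for the difference between them. Over 159 named values, all of them called in the main fit, other settings kept the call in 2057 of 2193 cases. Those settings ended it in 131 and reversed the sign in 5. Many of these values were picked for a large difference or a small adjusted p. The 2-fold limit was not applied to them. The share of calls kept therefore does not describe the whole set of respiratory genes.

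Deviations of same-numbered arrays correlated at -0.02 to 0.37 over 31 pineal-brain pairs, 11 of them above 0.1, including 5 of 6 in the oldest fish, and at -0.16 to 0.17 over 32 night-day pairs, 2 of them above 0.1. Not every pair passed 0.1, so the main fit took no pairing from the numbers. These correlations do not settle whether same-numbered arrays share a source. With the replicate block 76 genes were called between tissues and 10 for night in pineal, and the other counts stayed within 1.5 times. The number of arrays and signal over background limit the precision, and probe sets near background, such as cox4i1l, have differences compressed by the added constant.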
